A study of Mus musculus with 12 samples.

Results

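BiP and GRP94 are the main chaperones of the endoplasmic reticulum (ER), the compartment in which secreted proteins fold. The genes described here are *Hspa5*, which encodes BiP, *Hsp90b1*, which encodes GRP94, and 8 genes for the ER cochaperones that work with them. The 10 genes were found by symbol, each once, among the 55536 genes of the deposited tables, and all 10 were among the 19661 genes that passed a filter on low counts. RNA was sequenced from 12 mouse thyroids, 1 library per mouse, to compare thyroids with and without dysplasia. The 5 affected thyroids came from B6NTac mice (C57BL/6 from Taconic, TCW in the library names). Of the 7 unaffected thyroids, 6 came from B6NCrl mice (Charles River, CRW) and 1, replicate 14, from a knockout mouse of Taconic (TCK). In the study, the dysplasia was traced to a LINE-1 element inserted in the thyroglobulin gene, *Tg*. The labels give the phenotype of each mouse and neither its LINE-1 genotype, sex nor age, and the gene knocked out in the TCK mouse is not given in the sources used here. Except for the TCK mouse, colony and phenotype split the mice in the same way, so their parts cannot be told apart. P-values measure the spread between these mice.

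Thyroid follicular cells secrete large amounts of thyroglobulin, which folds in the ER before it is exported into the follicle. BiP, an HSP70, binds unfolded chains in a cycle driven by ATP, in which J proteins start hydrolysis and nucleotide exchange factors release the bound ADP. GRP94, an HSP90, acts on a narrower set of clients later in folding. Many genes of this system, though not all, are well-known targets of the unfolded protein response, the transcriptional response to unfolded protein in the ER.

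Total estimated counts were between 20170500 and 23319948 in affected mice, and between 11434901, in the TCK mouse, and 22401136 in unaffected mice. The smallest estimated count of any of the 10 genes in any mouse was 70.0, for *Sdf2l1* in an unaffected mouse. Levels are given as CPM (counts scaled to the library total, on the scale of edgeR's TMM factors) to compare mice, and as the deposited FPKM, a level per transcript length, to compare genes. Log2 fold changes are for affected against unaffected mice, from edgeR's quasi-likelihood test, with p-values adjusted by the Benjamini-Hochberg method over all genes tested and a threshold of 0.05.

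Of the 10 genes, 8 were higher in affected thyroids past the threshold, and none was lower. Over all genes tested, 7.63% were called higher, and 13.7% were called in either direction. These were 1500 higher and 1199 lower genes. With library totals that left out *Tg*, used without TMM factors, they were 604 and 1709, and all 8 members still passed. The same 8 genes also separated the groups without overlap, all 5 affected mice being above all 7 unaffected, which held for 3.78% of all genes tested. With library totals without *Tg*, 7 of the 8 did so, and *Dnajc3* overlapped. The median log2 fold change was 1.46 over the 10 genes and 0.01 over all genes. Both chaperones, both nucleotide exchange factors, *Sdf2l1* and 3 of the 5 J proteins were among the 8, and the J proteins *Dnajc1* and *Dnajc10* were not. Together the 10 genes held 0.576% ± 0.206 (SD, n = 5) of all counts in affected and 0.117% ± 0.022 (SD, n = 7) in unaffected thyroids. In bulk tissue, a difference in the number of cells of a type and a difference in RNA per cell cannot be told apart.

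**Figure D1:**
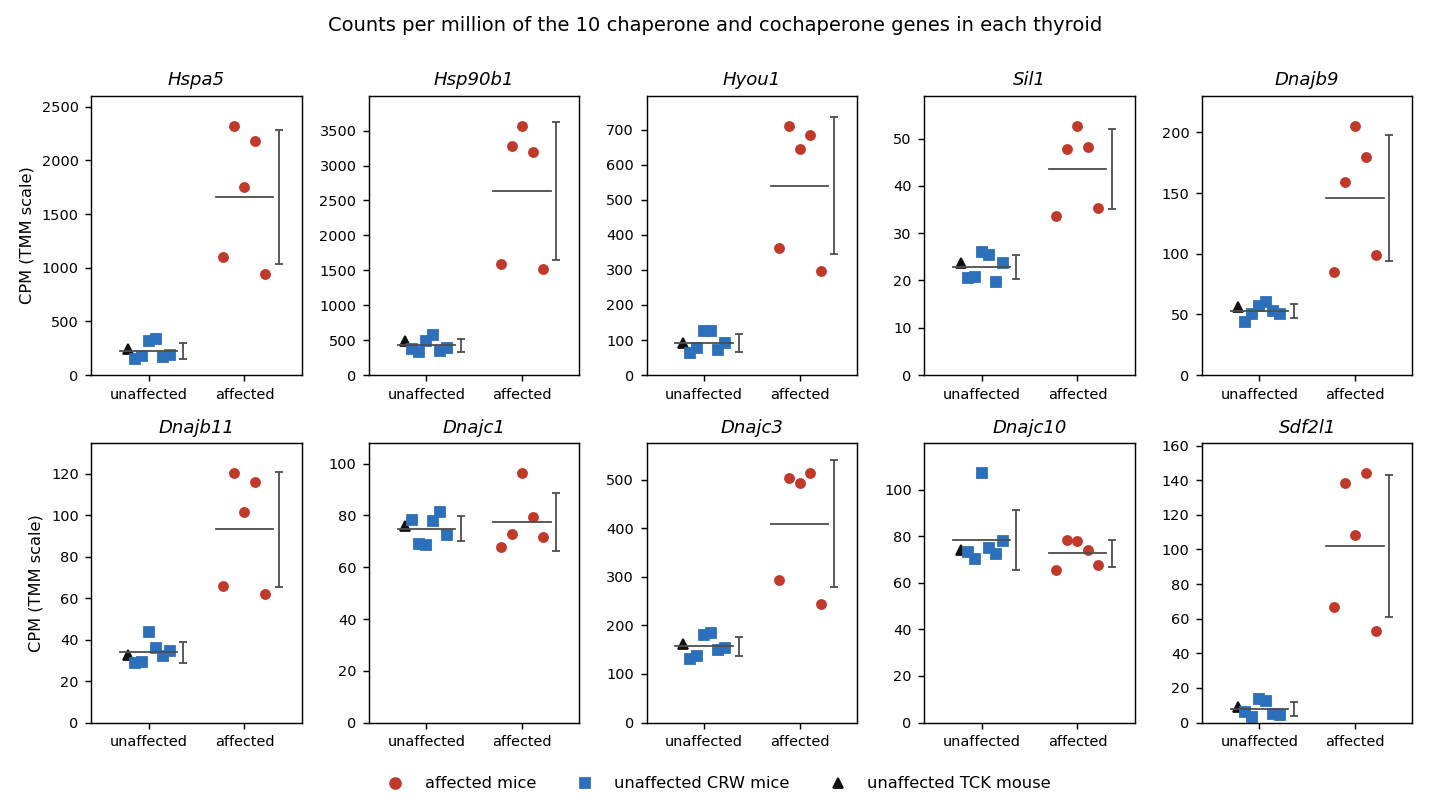
CPM of each of the 10 genes in each mouse, with a linear axis from 0 for each gene. Points are mice, horizontal lines are group means and bars are SDs (5 affected and 7 unaffected mice).

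*Hspa5* (ENSMUSG00000026864, chr2:34771970-34777547 of GRCm38, plus strand) had 1097, 2323, 1748, 2180 and 944 CPM in affected replicates 1, 3, 4, 5 and 6. In unaffected mice it had between 147 and 339 CPM, with a median of 189. Affected replicates 3 and 5 were the highest and replicates 1 and 6 the lowest of the affected mice, and even replicate 6 had 2.78 times the level of the highest unaffected mouse. In edgeR's test this gave a log2 fold change of 2.88 ± 0.28 (standard error), or 7.37-fold, with an adjusted p of 9.87e-05.

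*Hsp90b1* (ENSMUSG00000020048, chr10:86690209-86705509, minus strand) had 1597, 3284, 3569, 3188 and 1517 CPM in affected replicates 1, 3, 4, 5 and 6, and between 323 and 567 CPM (median 390) in unaffected mice. Replicates 1 and 6 were again well below the other affected mice, and no affected mouse reached down to the unaffected range. With edgeR the difference was 2.63 ± 0.24 log2 units (standard error), at an adjusted p of 7.06e-05. The deposited table marks this gene as confounded with another, and likewise *Sil1*, *Dnajb9*, *Dnajb11* and *Dnajc1*. In the annotation, 84 of its 4032 exon bases lie in exons of *Gm15344* and 133 in the microRNA gene *Gm25745*, both on the same strand, and 415 in exons of the pseudogene *1810014B01Rik* on the other strand. The microRNA gene had a median of 0 counts. *Gm15344* and the pseudogene had medians of 79.0 and 355 estimated counts in affected mice and of 14.0 and 150 over all 12 mice, against at least 5858 for *Hsp90b1* in every mouse.

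*Hyou1* (ENSMUSG00000032115, chr9:44379490-44392369, plus strand) encodes GRP170, a large HSP70 relative that serves BiP as a nucleotide exchange factor. It had 362, 712, 645, 687 and 296 CPM in affected replicates 1, 3, 4, 5 and 6, and between 61.8 and 127 CPM (median 91.1) in unaffected mice. All affected mice were above all unaffected mice, with replicate 6 at 2.34 times the highest of them. Its log2 fold change in edgeR's test, 2.55 ± 0.26 (standard error) with an adjusted p of 0.00012, was close to those of the chaperones.

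*Sil1* (ENSMUSG00000024357, chromosome 18, minus strand) encodes the other exchange factor of BiP, a protein unrelated to HSP70. Its level was 33.6, 47.7, 52.7, 48.1 and 35.4 CPM in affected replicates 1, 3, 4, 5 and 6, and ranged from 19.6 to 26.0 CPM (median 23.6) in unaffected mice. The groups did not overlap, but the gap was small, and the lowest affected mouse had 1.29 times the level of the highest unaffected mouse. At 0.93 ± 0.12 (standard error), its log2 fold change was the smallest among the 8 genes called, with an adjusted p of 0.000508 in edgeR's test. Exons of *Sil1* overlap antisense genes over 108 and 88 of 3436 bases, and these antisense genes had medians of 5.00 and 1.00 counts.

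Among the J proteins, *Dnajb9* (ENSMUSG00000014905, chr12:44205559-44210326, minus strand) encodes ERdj4, which acts in the degradation of misfolded ER proteins and holds BiP on the stress sensor IRE1. It had 84.5, 159, 205, 180 and 99.1 CPM in affected replicates 1, 3, 4, 5 and 6, and between 43.6 and 60.0 CPM (median 52.7) in unaffected mice. Of its 2549 exon bases, 14 lie in *Mir5627* on the other strand, which had no counts at the median. The affected mice were spread 2.43-fold from lowest to highest and the unaffected mice 1.37-fold, without overlap. The difference came to 1.46 ± 0.19 log2 units (standard error), and edgeR's adjusted p was 0.000584.

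*Dnajb11* (ENSMUSG00000004460, chr16:22857845-22879634, plus strand) encodes ERdj3, a soluble J protein that binds unfolded clients and passes them to BiP. Its level was 65.8, 120, 101, 116 and 61.8 CPM in affected replicates 1, 3, 4, 5 and 6, against 28.5 to 43.6 CPM (median 32.7) in unaffected mice. All affected mice were higher, and unaffected replicate 23 was the highest of the unaffected mice. In the annotation used here it shares no exon base with another gene. Its log2 fold change, 1.46 ± 0.17 (standard error), equalled that of *Dnajb9*, and the adjusted p in edgeR's test was 0.00031.

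*Dnajc3* (ENSMUSG00000022136, chr14:118937976-118981697, plus strand) encodes p58IPK, a J protein of the ER lumen that also binds misfolded clients. It had 294, 504, 494, 513 and 243 CPM in affected replicates 1, 3, 4, 5 and 6, and between 132 and 184 CPM (median 154) in unaffected mice. Replicates 3, 4 and 5 lay close together and far above replicates 1 and 6, which were still above every unaffected mouse. For this gene edgeR's test gave a log2 fold change of 1.39 ± 0.18 (standard error) and an adjusted p of 0.000563.

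*Dnajc1* (ENSMUSG00000026740, chr2:18195654-18392830, minus strand) encodes ERdj1, a J protein of the ER membrane that contacts ribosomes. It had 67.7, 73.0, 96.3, 79.3 and 71.7 CPM in affected replicates 1, 3, 4, 5 and 6, and between 68.8 and 81.5 CPM (median 76.1) in unaffected mice. Only affected replicate 4 was above the unaffected range, and replicate 1 was below it. With an adjusted p of 0.739 in edgeR's test, the log2 fold change was 0.05 ± 0.09 (standard error), and it was -0.08 with library totals without *Tg* and -0.02 without affected replicate 4. Of its 11651 exon bases, 749 lie in exons of *Mllt10* on the other strand, which had a median of 1403 counts, and no source used here tells if counts were made by strand.

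*Dnajc10* (ENSMUSG00000027006, chr2:80315466-80354043, plus strand) encodes ERdj5, a J protein with thioredoxin domains that reduces disulfides of misfolded proteins. Its level was 65.5, 78.2, 78.0, 73.9 and 67.7 CPM in affected replicates 1, 3, 4, 5 and 6, and between 70.2 and 107 CPM (median 74.2) in unaffected mice. The groups overlapped, and unaffected replicate 23 stood above all other mice. No difference passed, at -0.11 ± 0.10 log2 units (standard error) and an adjusted p of 0.514 in edgeR's test. The value was -0.03 without unaffected replicate 23 and -0.24 with library totals without *Tg*, and no alternative fit passed the threshold.

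*Sdf2l1* (ENSMUSG00000022769, chr16:17130138-17132383, minus strand) encodes a small ER protein that forms a complex with ERdj3 and keeps clients from aggregating. It had 66.7, 138, 108, 144 and 53.0 CPM in affected replicates 1, 3, 4, 5 and 6, and between 3.24 and 13.5 CPM (median 5.97) in unaffected mice. The lowest affected mouse had 3.93 times the level of the highest unaffected mouse, the widest gap of the 10 genes. With an adjusted p of 0.000219 in edgeR's test, its log2 fold change of 3.76 ± 0.40 (standard error) was also the largest of the 10, and ranked 22 among all genes tested.

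The TCK mouse, which shares the vendor of the affected mice, had *Hspa5* at 239 CPM, *Hsp90b1* at 489 CPM and *Sdf2l1* at 8.93 CPM. For all 10 genes its CPM was within the range of the 6 CRW mice, as it was for 65.5% of all genes tested. Being 1 mouse, it allows no test.

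Within the affected group, replicates 1 and 6 were the lowest pair for all 10 genes, *Dnajc1* and *Dnajc10* included. The same pair was lowest for 21.8% of all genes tested. *Tg*, the most abundant marker of follicular cells, had 100510, 182641, 255304, 198488 and 119096 CPM in affected replicates 1, 3, 4, 5 and 6, so the same replicates were lowest. Its part in the order of the affected mice was not tested.

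Per transcript length, the order of the genes differed between the groups. In both groups *Hsp90b1* had the highest FPKM, with 934 ± 350 (SD, n = 5) in affected and 152 ± 32.6 (SD, n = 7) in unaffected mice, followed by *Hspa5* with 648 ± 254 and 87.3 ± 28.5. *Hsp90b1* exceeded *Hspa5* in every mouse, although their ranges overlapped, and both were above all other members without overlap. In unaffected mice *Dnajc3* came next at 30.5 ± 3.65 FPKM (SD, n = 7), followed by *Dnajc10* at 24.5 ± 3.10, *Hyou1* at 22.4 ± 6.03 and *Dnajb9* at 21.6 ± 2.02. Each of these overlapped the next in range, and *Hyou1* exceeded *Dnajb9* in only 3 of 7 mice. *Dnajb11* (17.6 ± 2.51) and *Dnajc1* (16.7 ± 1.83) could not be ordered beyond their spread either, *Sil1* had 13.9 ± 1.54 and *Sdf2l1* was lowest at 6.83 ± 3.58 FPKM.

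In affected mice *Hyou1* was at rank 3, with 131 ± 49.3 FPKM (SD, n = 5), and *Sdf2l1* moved from the last rank to rank 4, with 92.1 ± 38.2. *Dnajc3* (79.5 ± 25.8), *Dnajb9* (59.1 ± 20.6), *Dnajb11* (48.3, with mice from 28.9 to 64.8), *Sil1* (26.1 ± 5.12), *Dnajc10* (22.3 ± 2.49) and *Dnajc1* (17.7 ± 2.38) followed. Neighbours from *Hyou1* down had overlapping ranges over mice, but within each affected mouse the order was the same at every step. *Dnajc10* thus went from rank 4 to rank 9 while its own FPKM overlapped between the groups.

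**Figure D2:**
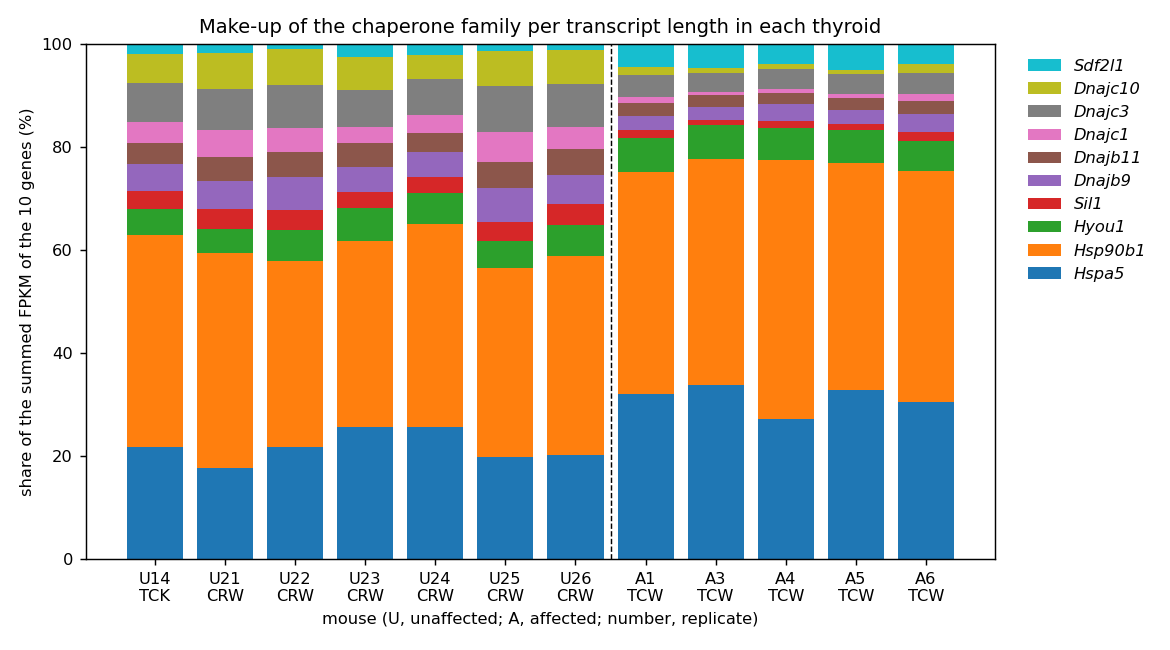
Share of each gene, in percent, in the summed FPKM of the 10 genes, as stacked bars for each mouse (7 unaffected mice on the left, 5 affected on the right of the dashed line). *Hspa5* and *Hsp90b1* together take 75.2% to 77.8% in affected and 56.5% to 65.1% in unaffected mice.

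As a share of the summed FPKM of the 10 genes, the chaperones *Hspa5* and *Hsp90b1* made up 76.5% ± 1.20 (SD, n = 5) in affected and 60.3% ± 3.02 (SD, n = 7) in unaffected mice. The 5 J proteins made up 11.4% ± 1.22 and 28.8% ± 3.37, and the groups overlapped in neither share. A share of a sum can fall while the gene's own level is higher, which was so for *Dnajb9*, *Dnajb11* and *Dnajc3*. *Sdf2l1* took 4.41% ± 0.475 of the sum in affected and 1.65% ± 0.583 in unaffected mice. The exchange factors *Hyou1* and *Sil1* took 7.69% ± 0.247 in affected and 9.25% ± 0.660 in unaffected mice, a direction that turned when CPM was used in place of FPKM. Within this pair the shares went opposite ways, though the level of each gene was higher in affected mice. *Hyou1* had 6.34% ± 0.274 in affected and 5.67% ± 0.647 in unaffected mice, with overlap. *Sil1* had 1.35% ± 0.288 and 3.58% ± 0.359, without overlap.

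Set against *Hspa5* in the same mouse, 7 of the 9 other members had a lower FPKM ratio in every affected mouse than in any unaffected mouse. This held for 89.9% of 19437 genes with an FPKM above 0 in all mice, so the count is near the background and says little about the members. *Dnajb11* had 7.68% ± 0.746 (SD, n = 5) of the FPKM of *Hspa5* in affected and 21.3% ± 4.46 (SD, n = 7) in unaffected mice. For *Dnajc10* the values were 3.84% ± 1.30 and 29.9% ± 7.28, the largest difference, -2.99 on the log2 scale. *Sil1* had 4.34% ± 1.05 and 16.9% ± 3.64.

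*Hyou1* stayed nearest to *Hspa5* among these 7, at 20.3% ± 1.59 of its FPKM in affected and 26.1% ± 2.42 in unaffected mice. *Hsp90b1* was at 146% ± 22.7 of *Hspa5* in affected and 180% ± 31.6 in unaffected mice, and these ranges overlapped. *Sdf2l1* was the exception, with 14.1% ± 0.815 of the FPKM of *Hspa5* in affected and 7.51% ± 2.14 in unaffected mice, without overlap. A ratio higher in every affected mouse was found for 3 of the 19437 genes (0.0154%), which were *Sdf2l1*, *Derl3* and *Slc7a3*.

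The genes whose log2 CPM over the 12 mice, centred on its mean, differed least from that of *Hspa5* included both *Hyou1* and *Hsp90b1*, at ranks 3 and 4 of 15527 genes. Their root mean square differences were 0.21 and 0.26 log2 units. *Manf* was nearest (0.16), followed by *Pdia4* (0.18), and after the pair named came *Creld2*, *Pdia6*, *Calr*, *Fkbp11*, *Slc14a2* and *Lgals3*, the last at 0.46. *Manf* encodes a secreted ER protein that binds BiP, *Pdia4* and *Pdia6* encode disulfide isomerases and *Calr* encodes calreticulin. The other members were farther, with *Sdf2l1* at rank 27, *Dnajb11* at 50, *Dnajb9* at 57, *Dnajc3* at 59, *Sil1* at 165, *Dnajc1* at 5492 and *Dnajc10* at 7889. Being taken over both groups, this distance depends in part on the log2 fold changes already given.

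Beyond the 10 genes, 9 other partners of BiP or GRP94 were listed, and 5 of them were higher past the threshold (3 to 5 over the 22 alternative fits) and none lower, with a median log2 fold change of 0.53. Over all genes tested, 7.63% were called higher, the share to set beside this list and those that follow. *Manf* had 198 ± 71.5 CPM (SD, n = 5) in affected and 30.5 ± 8.66 (SD, n = 7) in unaffected mice, which edgeR's test put at 2.70 ± 0.26 log2 units (standard error), with an adjusted p of 8.67e-05. Among the others called were *Ficd*, which encodes the enzyme that AMPylates BiP (log2 fold change 1.15), *Hspa13*, an HSP70 of microsomes (1.10), and *Cnpy3*, of the canopy family (0.60, passing in 20 of 22 alternative fits). *Sdf2*, the paralogue of *Sdf2l1*, had 20.3 ± 2.16 CPM in affected and 20.5 ± 1.36 in unaffected mice. In edgeR's test its log2 fold change was -0.02, at an adjusted p of 0.917, against 3.76 for *Sdf2l1*.

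The KDEL receptors return BiP and GRP94 from the Golgi to the ER. Of these 3 genes, *Kdelr2* (log2 fold change 0.65, adjusted p = 0.00347 in edgeR's test) and *Kdelr1* (0.43, adjusted p = 0.00747, passing in 21 of 22 alternative fits), the most abundant, were higher without overlap between the groups, and *Kdelr3* did not pass. Of 7 other J proteins of the ER membrane, *Sec63*, the partner of BiP at the translocon and the most abundant of the list, was higher by 0.47 log2 units (adjusted p = 0.00838 in edgeR's test, passing in 20 of 22 alternative fits). *Dnajc25* also passed (0.33, adjusted p = 0.0365), but in only 7 of 22 alternative fits, and the list's median was 0.23. From 0 to 3 of its genes were called higher over these fits, and 1 to 3 of the KDEL receptors. Of the 4 sensors of the unfolded protein response that BiP binds, *Atf6* was higher by 0.71 log2 units (adjusted p = 0.000583 in edgeR's test). *Ern1*, which encodes IRE1 and was the most abundant, had 0.42 (adjusted p = 0.0361), passing in 10 of 22 alternative fits, and *Atf6b* and *Eif2ak3* did not pass. The list's median was 0.36.

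Counterparts of this system in the cytosol and in mitochondria were also listed. Of 23 cytosolic HSP70, HSP90, J protein and exchange factor genes, 6 were higher, beside 7.63% of all genes tested. This count was 2 to 7 over the 22 alternative fits, none was lower, and the median log2 fold change was 0.20. The largest differences among those called were in *Hspa1a* (log2 fold change 0.70, passing in 6 of 22 alternative fits), *Hsp90aa1* (0.57, in 20 of 22), *Dnajb2* (0.51, in all) and *Hspa4l* (0.46, in 16 of 22). *Hsp90ab1*, the most abundant of them, had 814 ± 115 CPM (SD, n = 5) in affected and 730 ± 56.6 (SD, n = 7) in unaffected mice, and did not pass. Of 8 mitochondrial genes, 3 were higher (1 to 3 over the same fits) and none lower, with a median of 0.21. They were *Hspa9*, which encodes the mitochondrial HSP70 and was the most abundant (log2 fold change 0.87), *Dnaja3* (0.59, passing in 8 of 22 alternative fits) and *Grpel1* (0.54, in 21 of 22). *Hspa9* was highest in affected replicates 1 and 6, at 385 and 346 CPM, the mice in which *Hspa5* was lowest. The summed markers of brown and white fat were highest in the same mice, at 2716 and 1177 CPM, and those of skeletal muscle in replicate 6, at 19840 CPM. Their part in the level of *Hspa9* was not tested.

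Markers of cells in and around the thyroid were examined beside these results. Of 12 follicular markers, *Pax8* was lower (log2 fold change -0.81, adjusted p = 0.0158 in edgeR's test) and *Slc26a4* was higher, at 1.64 ± 1.16 CPM (SD, n = 5) in affected and 0.117 ± 0.119 (SD, n = 7) in unaffected mice, 2 of which had no count. Its log2 fold change over this level near 0 was 3.69, and 0.53 with limma on log2(FPKM + 1) without a filter. The summed level of the list was 101468, 184610, 257308, 200493 and 120087 CPM in affected replicates 1, 3, 4, 5 and 6, and between 211451 and 305368 CPM in unaffected mice, nearly all of it *Tg*. Without *Tg*, the sum was 1585 ± 558 CPM (SD, n = 5) in affected and 1735 ± 286 (SD, n = 7) in unaffected mice, and the groups overlapped.

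Of 9 markers of plasma and B cells, which secrete antibody and are rich in BiP, 5 could be tested and none passed. Their sum was 274 CPM in affected replicate 1 and between 7.43 and 11.2 CPM in replicates 3, 4, 5 and 6, against 11.8 to 54.1 CPM in unaffected mice. Replicates 3 to 6 were below every unaffected mouse and replicate 1 above. The part of these cells in the levels of the chaperone genes was not tested. *Ighm* was the most abundant of them, and *Mzb1*, which is also among the partners of GRP94, had 1.07 ± 0.546 CPM (SD, n = 5) in affected and 1.01 ± 0.356 (SD, n = 7) in unaffected mice.

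Of 7 macrophage markers, 3 were higher, among them *Lyz2* (log2 fold change 1.73), the most abundant, and *Cd68* (0.98). Their sum was 362, 325, 235, 243 and 218 CPM in affected replicates 1, 3, 4, 5 and 6, and between 82.4 and 199 CPM in unaffected mice. Without *Lyz2* the groups overlapped, at 131 ± 28.5 CPM (SD, n = 5) and 81.9 ± 26.8 (SD, n = 7). Of 5 fibroblast markers, *Dcn*, the most abundant (0.58, passing in 20 of 22 alternative fits), and *Pdgfra* (0.38, passing in 7 of 22) were higher, and the sum was 912 ± 199 CPM in affected and 675 ± 72.8 in unaffected mice, with overlap. Both sums were highest in affected replicate 1, one of the mice lowest in *Hspa5*. Their part in the differences of the chaperone genes was not tested.

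Of 4 endothelial markers, *Kdr* was lower (log2 fold change -0.60, passing in 10 of 22 alternative fits), and the sum, in which *Pecam1* led in affected and *Kdr* in unaffected mice, was 441 ± 64.8 CPM (SD, n = 5) in affected and 444 ± 53.2 (SD, n = 7) in unaffected mice. No marker passed for T cells (4 of 6 tested, with *Cd8a* the most abundant over all 12 mice but *Cd4* in affected mice), C cells (3 of 4, *Chga*), parathyroid (3 of 3, *Pth*), skeletal muscle (5 of 5, *Myh4*), brown and white fat (5 of 5, *Fabp4*), airway epithelium (1 of 4, *Scgb3a2* over all 12 mice but *Foxj1* in unaffected mice) or erythrocytes (5 of 5, *Hbb-bs*), and the sums of these lists overlapped between the groups. The skeletal muscle sum ranged from 9.94 to 19840 CPM in affected and from 1.11 to 9363 CPM in unaffected mice, and the parathyroid sum was 29.5 CPM in affected replicate 4 and at least 1807 CPM elsewhere. No marker was at 0 in all 12 mice.

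The transcript length behind each FPKM value can be worked out from the ratio of count to FPKM and the library's total, and moves when a gene's isoforms change their shares. For *Dnajc3* and *Sdf2l1*, which have 1 annotated transcript, it was 5141 and 1108 bp in all mice. For the other 8 genes, with 2 to 11 annotated transcripts, the groups overlapped, and exact two-sided permutation tests gave p between 0.162, for *Dnajc1*, and 0.841, for *Dnajb11*. *Hspa5* had an implied length of 2561 bp ± 10.6 (SD, n = 5) in affected and 2576 bp ± 38.7 (SD, n = 7) in unaffected mice, and *Hsp90b1* had 2803 bp ± 15.3 and 2807 bp ± 9.96. Of 10118 genes with at least 100 counts in every mouse, 1.53% had no overlap between the groups, and this was 1.67% of the 9084 with more than 1 transcript. The smallest p that 5 mice against 7 allow is 0.00126.

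Promoter windows from RefSeq (GRCm38.p6), from 250 bases before to 50 after the RefSeq start, were at hand for 8 of the 10 genes, all but *Hyou1* and *Sil1*. This start differs from the gene start in the deposited tables for 4 of them, and lies 120, 65 and 258 bases inside the gene for *Hspa5*, *Hsp90b1* and *Dnajb9* and 44 bases before it for *Dnajc3*. The whole window of *Dnajb9* thus lies inside the gene as the deposited tables give it. All windows were searched on both strands for elements known from genes of the unfolded protein response. The ER stress response element (ERSE, CCAAT and CCACG with 9 bases between them) was found in the windows of *Hspa5*, *Hsp90b1* and *Dnajc3*, and in 39 of all 32851 windows (0.119%). *Hsp90b1* held it 2 times, once on each strand. ERSE-II (ATTGG and CCACG with 1 base between them) was found in *Dnajb11*, 8 to 18 bases into the gene, and in 0.0365% of all windows. The core TGACGTG was found in *Hspa5* and in 2.01% of all windows, and the ATF4-type element TGATGNAAT in none of the 8 and in 0.965% of all windows.

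CCAAT alone, which is also part of every ERSE and, on the other strand, of every ERSE-II, was found in 6 of the 8 windows and in 37.4% of all windows. It occurred 6 times in *Hsp90b1*, 5 times in *Dnajb11*, 4 times in *Hspa5* and in *Sdf2l1*, 2 times in *Dnajc3* and 1 time in *Dnajb9*. The windows of *Dnajc1* and *Dnajc10*, the members that did not differ past the threshold, held none of the elements searched. Most of all windows lack CCAAT, the commonest of these elements, so a window without any is not unusual. The window of *Sdf2l1*, the member with the largest difference, held CCAAT and none of the others. A match describes the letters of a window, and no binding was measured here.

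**Figure D3:**
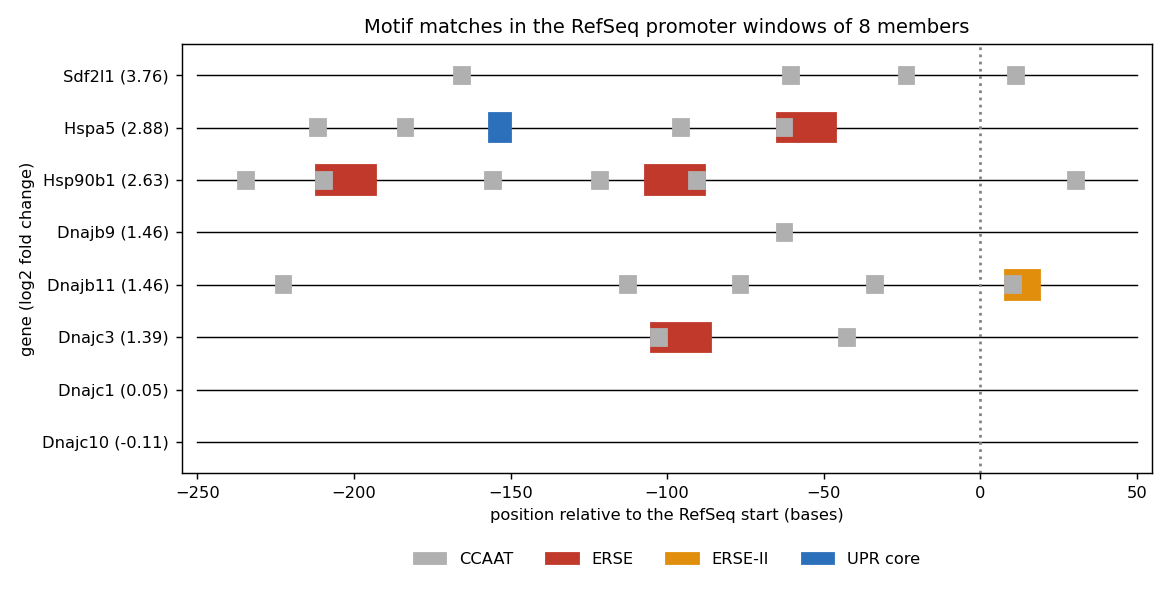
Positions of motif matches, on either strand, in the promoter windows of 8 members, in bases from the RefSeq start (dotted line), ordered by log2 fold change. Coloured boxes are ERSE, ERSE-II and the core TGACGTG, and grey boxes are CCAAT, which lies within each ERSE and ERSE-II.

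The 250 bases before the RefSeq start are shown for the 3 genes with an ERSE, and beside them for *Sdf2l1* and *Dnajc10*, which lack one and had the largest and the lowest log2 fold change of the 10 genes. Capitals mark the fixed letters of ERSE and of TGACGTG, on either strand. They are chr2:34771840-34772089 (plus strand) for *Hspa5*, chr10:86705445-86705694 (minus) for *Hsp90b1*, chr14:118937682-118937931 (plus) for *Dnajc3*, chr16:17132384-17132633 (minus) for *Sdf2l1* and chr2:80315216-80315465 (plus) for *Dnajc10*.
Hspa5: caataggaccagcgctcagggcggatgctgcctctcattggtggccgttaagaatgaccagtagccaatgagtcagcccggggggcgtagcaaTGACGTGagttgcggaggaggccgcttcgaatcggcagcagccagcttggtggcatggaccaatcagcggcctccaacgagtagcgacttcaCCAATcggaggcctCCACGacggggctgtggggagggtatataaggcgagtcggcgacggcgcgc
Hsp90b1: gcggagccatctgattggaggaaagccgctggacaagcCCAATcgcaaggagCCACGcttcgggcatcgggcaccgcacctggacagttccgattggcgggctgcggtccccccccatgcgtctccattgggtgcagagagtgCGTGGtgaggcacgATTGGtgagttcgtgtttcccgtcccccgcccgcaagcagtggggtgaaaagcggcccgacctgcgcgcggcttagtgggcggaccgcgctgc
Dnajc3: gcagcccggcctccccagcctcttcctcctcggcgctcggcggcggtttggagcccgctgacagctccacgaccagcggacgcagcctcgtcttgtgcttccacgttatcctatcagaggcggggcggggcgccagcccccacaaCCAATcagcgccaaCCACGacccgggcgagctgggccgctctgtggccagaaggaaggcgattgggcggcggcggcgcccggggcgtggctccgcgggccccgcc
Sdf2l1: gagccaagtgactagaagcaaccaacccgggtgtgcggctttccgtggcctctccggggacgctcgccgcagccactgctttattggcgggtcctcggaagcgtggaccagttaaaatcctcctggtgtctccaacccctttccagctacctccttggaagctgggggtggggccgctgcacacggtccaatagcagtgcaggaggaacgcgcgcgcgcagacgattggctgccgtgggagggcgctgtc
Dnajc10: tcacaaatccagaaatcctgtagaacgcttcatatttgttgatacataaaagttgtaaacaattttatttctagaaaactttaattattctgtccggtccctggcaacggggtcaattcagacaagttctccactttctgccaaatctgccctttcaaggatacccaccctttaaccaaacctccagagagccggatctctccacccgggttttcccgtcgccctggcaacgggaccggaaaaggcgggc
In *Hspa5* the ERSE lies at -65 to -47 from the RefSeq start, which places it inside the gene as the deposited tables give it, and TGACGTG at -157 to -151. In *Hsp90b1* the ERSE of the same strand lies at -212 to -194 and that of the other strand at -107 to -89, and in *Dnajc3* it lies at -105 to -87.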

How the data were processed

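The authors made libraries from total RNA depleted of ribosomal RNA, sequenced them on an Illumina NextSeq and aligned and quantified reads per gene in OmicSoft Array Studio. They deposited estimated counts, which were not normalized, and FPKM values, for 12 mice. All 10 members have the same coordinates in GENCODE release M21 (GRCm38). The members and gene lists were chosen with earlier results of these data known.

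Estimated counts were rounded to whole numbers, filtered with edgeR's filterByExpr (minimum count 10), scaled by TMM and fitted by robust quasi-likelihood in edgeR 4.0.16 (R 4.3.3) without covariates, with Benjamini-Hochberg adjustment. Standard errors are the log2 fold change over the square root of F. Log2 CPM has a prior count of 2. The test was checked on simulated counts. Errors are SDs between mice.

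Named genes are the 10 members, at most 4 genes past the threshold and the most abundant gene (over all 12 mice) of each other list, at most 2 past the threshold and the most abundant of each marker list, and the 10 genes nearest to *Hspa5* with an average log2 CPM of at least 1. Any others were chosen after their values were seen, as were the shares of summed FPKM and the order of the affected mice.

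Alternatives were DESeq2 1.42.0, library totals without TMM factors, the same totals with *Tg* left out as well, and upper-quartile factors. Others were no filter, a minimum of 10 counts for all mice, only the CRW controls and fits with 1 mouse left out. Limma 3.58.1 was also used (pseudocount 1 or 0.1 on FPKM, genes averaging 0.5 or more, and for pseudocount 1 also all genes). Log2 differences of FPKM with a pseudocount understate changes of low genes.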

Additional observations from a re-analysis of the deposited data

Results flagged for a closer look

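*Dnajc10* in unaffected replicate 23 stood apart from the other unaffected mice, at 6.74 log2 CPM (107 CPM), where the other 6 had between 70.2 and 78.1 CPM. Its gap to the nearest mouse was 0.747 of the range of the group. This was the 1 value past Dixon's 95% limit among 20 groups examined (10 genes in affected and in unaffected mice). Such a limit flags about 1 in 20 independent groups by chance, and these groups share the same mice.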

How the results depend on the processing

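All 8 members called stayed higher past the threshold in all 22 alternatives, 12 of which leave out 1 mouse (only CRW controls repeats the fit without the TCK mouse), with log2 fold changes of 2.73 to 3.04 for *Hspa5* and 0.81 to 1.01 for *Sil1*. *Dnajc1* turned to -0.0809 with library totals without *Tg*, which shift the median of all genes by -0.14, and was between -0.0184 and 0.0942 with 1 mouse left out. The 2699 genes called (1500 higher, 1199 lower) were 1150 higher and 977 lower with library totals without TMM factors. They were 604 higher and 1709 lower when these totals also left out *Tg*, and 1149 and 1510 with upper-quartile factors. With limma, 979 (pseudocount 1) and 983 (0.1) were higher, and 1339 were called, 719 higher, without a filter. With 1 mouse left out, 1774 to 3390 genes were called and 1002 to 1872 higher. Without *Tg* in the totals, 3 other partners, 1 KDEL receptor, 0 other ER membrane J proteins (1 lower), 1 sensor and 2 cytosolic genes were called higher. Limma without a filter gave 0 such J proteins, 1 sensor, 2 cytosolic and 1 mitochondrial gene. That J protein count was 1 with no TMM, upper-quartile factors, no filter and both filtered limma fits, and 1 to 3 with mice left out. The sensor count was 1 with upper-quartile factors, no filter and CRW controls only, and 1 to 2 with mice left out, and the cytosolic count 3 to 7. The share of *Hyou1* and *Sil1* reversed to 0.34 points with CPM. Dropping the filter tests more genes; other causes were not tested. The TCK mouse had the lowest depth.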
